A study of Mus musculus with 2 samples.

Results

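Granule-rich cells are a part of the cells of 63.3, a mouse acute myeloid leukemia line, 48 h after beta-estradiol was taken away. They carried high levels of some neutrophil transcripts. They were chosen by the level of 6 transcripts in the same cells: S100a8 and S100a9 (the subunits of calprotectin), Ngp (neutrophilic granule protein), Camp (cathelicidin), Chil3 (a chitinase-like protein) and Lcn2 (lipocalin 2, which binds bacterial siderophores). A cell was granule-rich when its summed unique molecular identifiers (UMIs) of these genes exceeded 100 per 10000 of its UMIs, a value called its granule load below. This held for 580 of the 963 cells of the culture, out of 12540 cells in the series. The 383 cells at or under the cut are called the other cells. Granule-rich and granule load are labels only, since most UMIs of the 6 genes in granule-rich cells were of S100a8 and S100a9.

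Each of the 10 conditions was a separate culture, marked by MULTI-seq, in which lipid-anchored DNA oligonucleotides tag the cells of a culture before pooling. The pool was profiled with 10x Genomics v3 chemistry in 2 runs. All cultures were grown with 0.5 µM beta-estradiol and stem cell factor from the conditioned medium of a hamster ovary line. For withdrawal, cells were washed in PBS and kept without estrogen for 6, 12, 24 or 48 h. Brequinar, an inhibitor of the pyrimidine synthesis enzyme DHODH, was given at 2 µM for the same times, and each series had its own 0 h culture. The labels used here give neither a genotype of the line nor a culture kept untreated to 48 h. With 1 culture per condition, and with classes set from the values of the cells compared, no test was run. Levels are counts per 1000000 (CPM) of the UMIs summed over the cells of a class, with the 6 rule genes left out of values and totals. All intervals are exact, at 95%, and account for counting alone.

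Neutrophils fill their granules in waves as they mature. Proteases and myeloperoxidase are made for the primary granules of promyelocytes. Lactoferrin, cathelicidin and lipocalin 2 follow in the secondary granules of myelocytes and metamyelocytes, and gelatinase and surface receptors come later. C/EBP epsilon is known as the transcription factor without which secondary granule genes are not properly made. Eosinophils carry a different set, with major basic protein and eosinophil peroxidase. The line is a leukemic progenitor, so the words primary, secondary and late here name lists of genes and not stages of these cells.

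The tag that assigned cells to the culture is shown because membership of the 963 cells rests on it, with its 8 bases in capitals.

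Tag of the 48 h withdrawal culture: TCACAGCA

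The RefSeq promoters (GRCm38.p6) of Ltf and Mmp8, 2 secondary granule genes outside the rule, are shown because both genes were much higher in granule-rich cells. They are the 250 bases before the start of each gene, chr9:111019042-111019291 and chr9:7558179-7558428, both on the + strand. Capitals mark matches on either strand to TTNNGNAA, a relaxed form of the C/EBP motif.

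Ltf: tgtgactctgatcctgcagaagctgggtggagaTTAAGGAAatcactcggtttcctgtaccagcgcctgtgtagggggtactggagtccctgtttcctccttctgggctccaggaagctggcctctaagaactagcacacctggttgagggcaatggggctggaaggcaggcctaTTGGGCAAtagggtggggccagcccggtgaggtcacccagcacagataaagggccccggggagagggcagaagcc

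Mmp8: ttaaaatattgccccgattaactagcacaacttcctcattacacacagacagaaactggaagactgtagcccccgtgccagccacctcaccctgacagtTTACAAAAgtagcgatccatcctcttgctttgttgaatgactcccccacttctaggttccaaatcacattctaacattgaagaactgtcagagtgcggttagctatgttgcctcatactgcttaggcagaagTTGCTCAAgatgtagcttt

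Each promoter holds 2 matches. In windows from 250 bases before to 50 after the start, 40.7% of 32851 RefSeq promoters outside chromosome 18 held the motif on either strand. AGATAA, known as a site of the eosinophil and mast cell regulator GATA1, was held by 11.2%. Of the 12 genes named below as highest in granule-rich cells, 11 had a promoter in the table, 7 of them with the C/EBP motif and 2 with the other. Of the 12 named as lowest, 7 had a promoter, 2 of them with the C/EBP motif and 1 with the other. A match describes letters and shows no binding.

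Granule-rich cells made up 60.2% of the 48 h withdrawal culture (57.1% to 63.3%). The same cut took 3 of 1353 cells at 0 h of withdrawal, 6 of 1252 at 6 h, 5 of 1229 at 12 h and 29 of 1393 at 24 h. In the brequinar series it took 4 of 1503 cells at 0 h, 3 of 1253 at 6 h, 5 of 1536 at 12 h, 5 of 1530 at 24 h and 11 of 528 at 48 h. The median granule load of the 48 h withdrawal culture was 173 per 10000, against 2.20 to 4.82 in the other 9 cultures, which went through the same pool and runs. Free RNA, profiled in barcodes of 2 to 100 UMIs, carried the 6 transcripts at 38.0 per 10000. How far free RNA fills the load of cells near the cut was not tested.

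**Figure D1:**
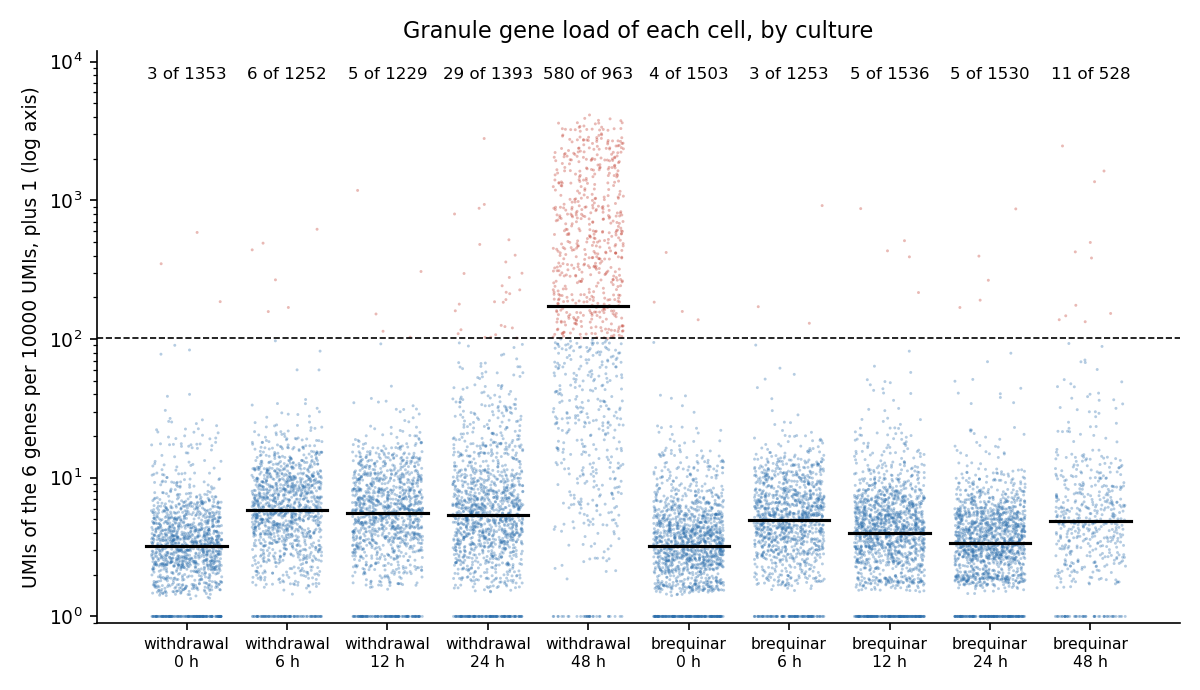
Granule load of every cell (UMIs of the 6 rule genes per 10000 UMIs, plus 1, log axis) in the 10 cultures; points are cells, red over the cut of 100 (dashed line) and blue under it, bars are medians, and the numbers count cells over the cut. The 580 granule-rich cells of 48 h withdrawal spread from the cut up to 4130 with no gap at the line.

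The load ran through the cut without a gap. Its median was 564 in granule-rich cells and 20.0 in other cells. The lowest granule-rich cells stood at 100.1 and 101 per 10000 and the highest other cells at 99.2 and 98.0, with 42 cells over 100 to 125 and 35 over 80 to 100. Of the other cells, 32 had no UMI of the 6 genes. The highest load was 4130 per 10000.

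Granule-rich cells held 98.0% of the culture's UMIs of the 6 genes. These genes were 9.44% of all UMIs of granule-rich cells and 0.297% of those of other cells. S100a8 gave 136325 UMIs in granule-rich and 795 in other cells, S100a9 gave 138254 and 261, and Chil3 gave 51730 and 3711. Lcn2 gave 41838 and 3103, Ngp 17483 and 155, and Camp 5847 and 49. These values chose the cells and are given as a description. Chil3 and Lcn2 were less confined to the class than the calprotectin genes: 93.3% and 93.1% of their UMIs lay in granule-rich cells, against 99.4% for S100a8 and 99.8% for S100a9.

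The class was not uniform in which of the 6 transcripts led. S100a8 was the highest of the 6 in 183 granule-rich cells, Chil3 in 177, S100a9 in 151, Lcn2 in 60, Ngp in 8 and Camp in 1. Without Chil3 in the sum, 447 of the 580 stayed over the cut, and without Lcn2 518 did, against 545 without S100a8 and 577 without S100a9. The make-up shifted with the load. Among cells at 30 to 100 per 10000, Chil3 gave 50.1% of the 6 genes' UMIs, Lcn2 35.3%, S100a8 10.0% and S100a9 2.68%. At 100 to 300 the shares were 50.0%, 24.6%, 19.4% and 2.82%. At 300 to 1000, S100a8 led with 37.8%, and over 1000 S100a9 led with 43.7%, followed by S100a8 with 35.3%, Lcn2 with 7.76% and Chil3 with 6.81%. Cells just over the cut thus carried mostly Chil3 and Lcn2, and cells of the highest load mostly calprotectin transcripts.

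**Figure D2:**
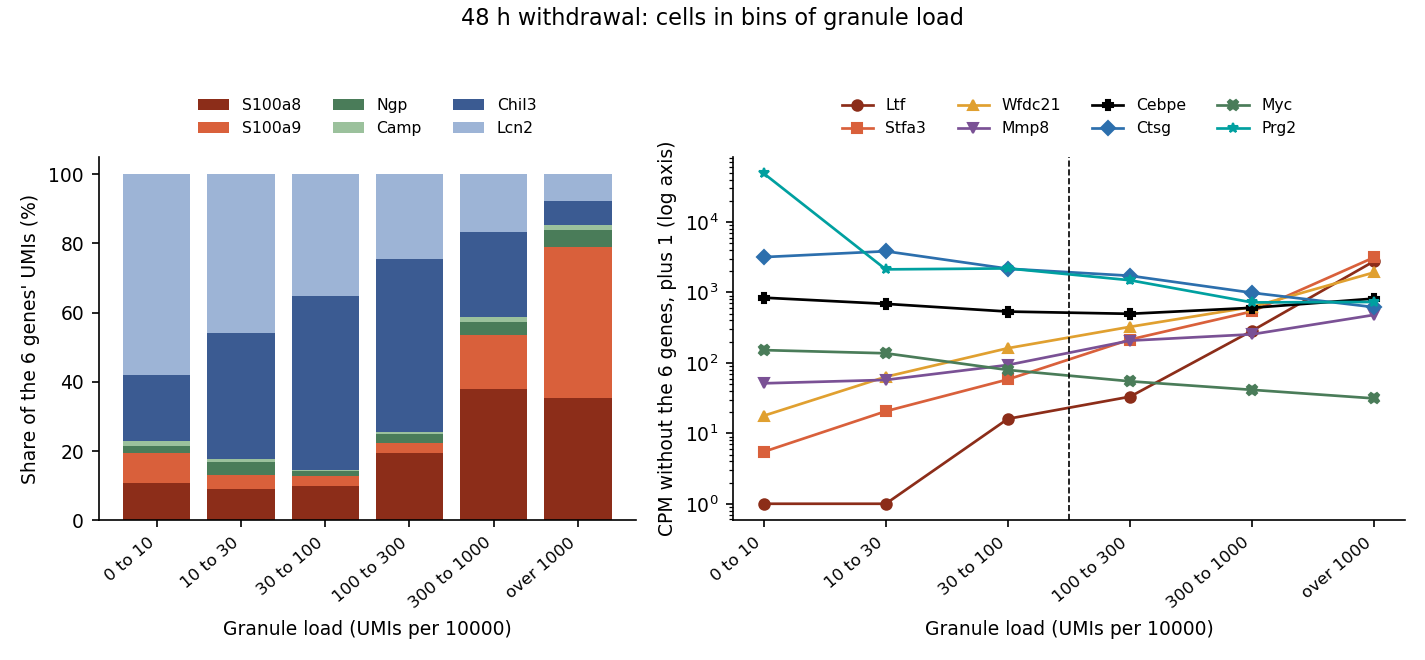
Cells of the 48 h withdrawal culture in 6 bins of granule load (UMIs per 10000). Left, the share of each rule gene among the UMIs of the 6 (%); right, CPM plus 1 (log axis) of 8 genes outside the rule, with the cut as a dashed line: Ltf reaches 2784 CPM in the highest bin, Prg2 is at 49075 CPM in the lowest, and Cebpe stays between 497 and 842 CPM.

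Median depth was close in the classes with the 6 genes counted, but the other cells held more shallow cells, and mitochondrial shares differed. Median UMIs per cell were 6433 in granule-rich and 6638 in other cells, but 5821.5 and 6593 without the 6 genes. Sums without the 6 genes were 3755577 and 2707866 UMIs, which puts 3 counts at 0.799 and 1.11 CPM. Thinned to 3500 UMIs of the remaining genes, 544 granule-rich and 313 other cells showed a median of 1530 and 1572 genes (2050 and 2236 before thinning, with 36 and 70 shallower cells left out). The median mitochondrial share was 1.94% and 2.78%. At least 10% of UMIs were mitochondrial in 2 granule-rich (0.345%) and 28 other cells (7.31%). Along the load the median went from 2.91% in the lowest bin to 1.48% in the highest. The part of this difference in the ratios below was not tested beyond leaving out the cells with at least 10%, after which 112 and 111 genes passed 2-fold in place of the 107 and 111 given next. Barcodes shared by the 2 runs could not be counted, and doublets of cells from the same culture carry a single tag and were not removed.

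Of 5572 genes measured at 20 CPM or more in either class, 107 were at least 2-fold higher in granule-rich cells (1.92%) and 111 at least 2-fold lower (1.99%). At 1.5-fold, the size used for lists below, 340 were higher (6.1%) and 505 lower (9.06%), and the median log2 ratio was -0.07. With the 6 rule genes kept in the totals, which their 9.44% share moves, 78 genes were at least 2-fold higher and 176 lower. A set of other cells with very high Prg2, described further below, bears on several lower genes. Without those cells 105 genes were higher (1.87% of 5608) and 125 lower (2.23%).

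**Figure D3:**
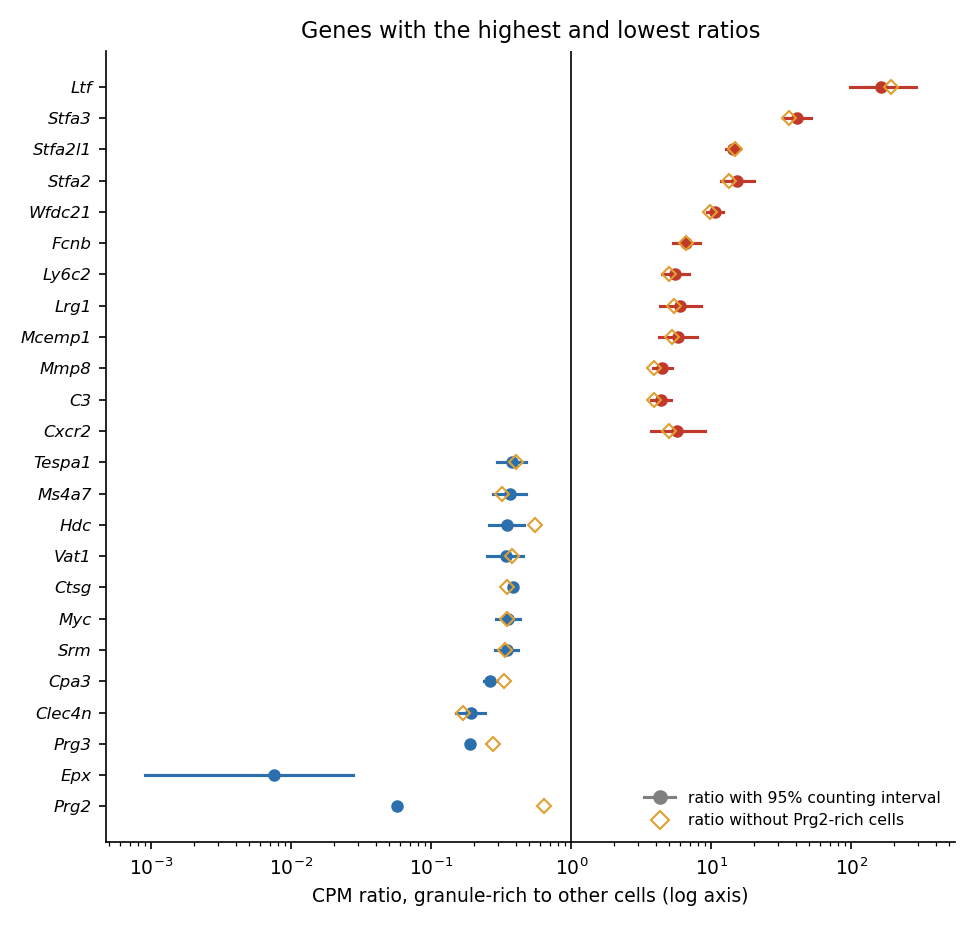
CPM ratio of granule-rich to other cells (log axis) for the 12 highest and 12 lowest log2 ratios among genes at 50 CPM or more. Predicted, unnamed (clone or Rik names) and mitochondrial genes were left out, so Gm5483 and BC100530 are not shown. Points are ratios with 95% counting intervals, and open diamonds the ratio without Prg2-rich cells. Epx has no diamond, since the other cells then hold 0 UMIs. Ltf lies at 162 and at 191 without those cells. Prg2, the gene of the cut that removes them, moves from 0.0565 to 0.642.

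Secondary granule genes that the rule did not use were far higher in granule-rich cells. Of 12 measured members of the list, 10 were at least 1.5-fold higher and 0 lower, with a median log2 ratio of 1.84. The 10 include Cybb, which is counted again with the phagocyte oxidase below. Without Prg2-rich cells 9 of 13 were higher and 1 lower, with a median of 1.74. Ltf, which encodes lactoferrin, stood at 897 CPM in granule-rich and 5.54 CPM in other cells, a ratio of 162 (98.1 to 289.8). It was found in 174 of 580 granule-rich and 4 of 383 other cells, and the 23 granule-rich cells with most Ltf held at least 50% of that class's UMIs of it. Lactoferrin transcripts were thus carried by a minority of the class. Over the load bins Ltf stood at 0, 0, 15.1, 32.1, 285 and 2784 CPM, and the highest bin held 2939 of the 3370 Ltf UMIs of granule-rich cells.

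Ly6g, which encodes the neutrophil surface antigen stained by Gr-1 antibodies, had 80 UMIs in granule-rich and 0 in other cells. At 21.3 CPM it counts as measured through granule-rich cells alone. With the other cells set to 3 counts it was 19.2-fold higher, and the exact interval of its ratio starts at 15.3. Like Ltf, it was concentrated at high load, with 0.747, 7.35 and 65.4 CPM in the 3 bins over the cut. Mmp8, neutrophil collagenase, stood at 300.1 and 67.6 CPM, 4.44-fold (3.80 to 5.22). By load it stood at 50.3, 56.3 and 92.4 CPM in the 3 lower bins and 206, 254 and 479 CPM in the 3 upper ones. Wfdc21, a gene of the whey acidic protein family, stood at 882 and 83.5 CPM (10.6-fold, 9.23 to 12.1). Fcnb, the lectin ficolin B, stood at 232 and 35.1 CPM (6.62-fold, 5.35 to 8.27).

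The remaining secondary granule members differed less. Olfm4 (olfactomedin 4), which marks a subset of neutrophils, was 3.99-fold higher, Anxa1 (annexin A1) 2.51-fold and Pglyrp1, a peptidoglycan recognition protein, 2.48-fold. Hp, haptoglobin, was already at 1459.8 CPM in other cells and at 2356 CPM in granule-rich ones (1.61-fold, 1.55 to 1.68). Tcn2 (transcobalamin 2) and Serpinb1a, an inhibitor of neutrophil proteases, lay within 1.5-fold, at ratios of 1.20 and 0.911. Lyz2, lysozyme, was listed at 2 and 0 UMIs, and Rps6, a ribosomal protein of every cell, at the same 2 and 0. A gene listed at or near 0 here is therefore not taken as absent.

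The stefin A genes, a mouse family of intracellular inhibitors of cysteine proteases, were abundant in granule-rich cells and higher there than in other cells. All 9 measured members were at least 1.5-fold higher, with a median log2 ratio of 2.65, and the family summed to 47985 CPM in granule-rich and 10942 CPM in other cells. Stfa1 was the most abundant, at 23511 and 7509 CPM (3.13-fold, 3.08 to 3.18). BC100530 followed at 11016 and 1746 CPM (6.31-fold) and Gm5483 at 8981 and 1062 CPM (8.45-fold).

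The steepest members were less abundant. Stfa3 stood at 1157 and 28.4 CPM (40.7-fold, 32.5 to 51.6), Stfa2 at 333 and 21.8 CPM (15.3-fold) and Stfa2l1 at 1602 and 113 CPM (14.2-fold). Their copies are near-identical, so how the reads were split among them is uncertain and the family sum is the safer value. That sum was higher in each successive load bin, at 5287 CPM in the lowest and then 12301, 14911, 23667, 43937 and 84050 CPM. Of the listed genes, 8 lie within a run of 12 neighbouring protein-coding genes on chromosome 16 in RefSeq's annotation of GRCm38.p6.

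Late neutrophil genes were higher in part. Of 24 measured members 14 were at least 1.5-fold higher and 1 lower, with a median log2 ratio of 0.74. Asprv1, an aspartic protease, was 7.0-fold higher (36.2 and 5.17 CPM), Lrg1, a leucine-rich glycoprotein stored in granules, 5.98-fold (90.5 and 15.1) and Mcemp1, a membrane protein of mast cells and neutrophils, 5.72-fold (104 and 18.1). Cxcr2, the chemokine receptor through which mature neutrophils leave the marrow, stood at 52.2 and 9.23 CPM (5.65-fold, 3.72 to 8.95).

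Cxcr2 had UMIs in 157 of 580 granule-rich and 19 of 383 other cells, and 59 granule-rich cells held at least 50% of that class's UMIs of it, against 23 for Ltf. Mmp9, gelatinase B of tertiary granules, was 3.94-fold higher, Ifitm6 3.85-fold, Padi4, the enzyme that citrullinates histones in neutrophil extracellular traps, 2.95-fold and Mxd1, a MAX partner, 2.74-fold. Csf3r, the receptor of G-CSF, was modestly higher, at 66.8 and 40.6 CPM (1.65-fold, 1.31 to 2.08). Other late genes lay near 1, among them Retnlg (1.01), Slpi (0.997), Clec4e (1.02) and Ifitm1 (0.987), and the lectin Clec4d was 1.66-fold lower. Of the late list, Mmp25, Fpr2, G0s2 and Prok2 were at 0 in both classes.

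**Figure D4:**
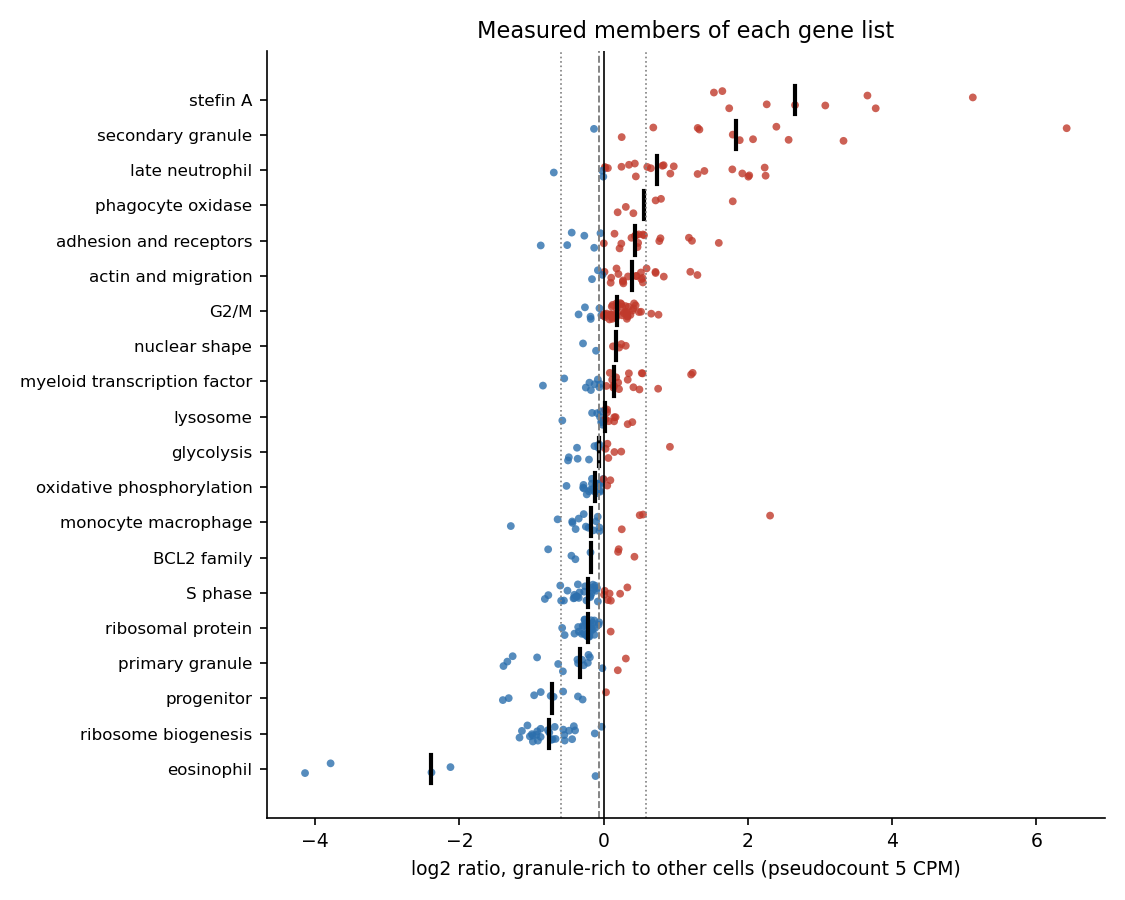
Log2 ratio of granule-rich to other cells (pseudocount 5 CPM) of the measured members of 20 gene lists; points are genes, red above and blue below 0, bars are list medians, dotted lines mark 1.5-fold and the dashed line the median of all measured genes at -0.07. Stefin A, secondary granule and late neutrophil lists have the highest medians, and progenitor, ribosome biogenesis and eosinophil lists the lowest.

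Some phagocyte oxidase, receptor and actin genes were higher by smaller ratios, and most members of the receptor and actin lists passed 1.5-fold in neither direction. In the phagocyte oxidase, the NADPH oxidase complex of 6 measured genes, 3 were at least 1.5-fold higher and 0 lower (median log2 ratio 0.57): Cybb, its catalytic subunit, at 329 and 91.6 CPM (3.59-fold), and the cytosolic subunits Ncf1 (1.93-fold) and Ncf4 (1.66-fold). Without Prg2-rich cells, which also carried Cybb, its ratio was 5.38. Among 24 adhesion molecules and receptors, 6 were higher and 1, the lectin Clec7a, lower (2.07-fold, median of the list 0.44). C5ar1, the receptor of complement C5a, was 3.26-fold higher (142 and 43.6 CPM), Itgal, the alpha chain of LFA-1, 2.74-fold and the inhibitory receptor Pirb 2.43-fold. Itgam, the alpha chain of Mac-1, was scarcely detected, with 41 and 17 UMIs (1.74-fold, 0.966 to 3.26), an interval that includes 1.

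Of 24 actin and migration genes 6 were higher and 0 lower (median 0.39), led by Lsp1 (2.69-fold) and S100a6 (2.47-fold, 1575 and 637 CPM). The complement component C3, a secreted protein named by its ratio and in none of the lists, stood at 266 and 61.3 CPM (4.34-fold, 3.68 to 5.15).

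The transcription factors of the granulocyte lineage were nearly level between the classes. Of 27 measured myeloid factors 3 were at least 1.5-fold higher and 2 lower, with a median log2 ratio of 0.14. Cebpe, which encodes C/EBP epsilon, stood at 626 CPM in granule-rich and 682 CPM in other cells (0.917-fold, 0.862 to 0.975). Without Prg2-rich cells its ratio was 1.00 (0.938 to 1.07). Over the load bins Cebpe stood at 842, 688, 534, 497, 604 and 818 CPM, lowest next to the cut and higher at both ends. Between the classes, a large difference in granule transcripts was therefore measured beside nearly equal Cebpe transcript. Within granule-rich cells this did not hold. Over the cut Cebpe was higher in each successive load bin, at 497, 604 and 818 CPM, and so was Ltf. Whether Cebpe bears on the granule transcripts was not tested.

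Spi1, which encodes PU.1, stood at 842 and 746 CPM (1.13-fold). The factors that differed were Klf2 (2.41-fold higher), Id2 (2.40-fold higher), an inhibitor of basic helix-loop-helix factors, and Bcl6 (1.89-fold higher). Gfi1, a repressor needed for granulocyte development, was 1.90-fold lower (1.52 to 2.38) and Cebpg 1.53-fold lower. Gfi1 stood at 76.0 CPM in the lowest load bin and 22.7 CPM in the highest.

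Primary granule genes were level or lower. Of 16 measured members 0 were at least 1.5-fold higher and 6 lower, with a median log2 ratio of -0.33. Ctsg, cathepsin G, stood at 1147 CPM in granule-rich and 3009 CPM in other cells, 2.62-fold lower (2.53 to 2.72). Hdc, histidine decarboxylase, was 2.90-fold lower, but 1.82-fold without Prg2-rich cells. Calr, the chaperone calreticulin, was 2.41-fold lower and Mpo, myeloperoxidase, 1.91-fold (387 and 739 CPM).

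The other primary granule proteases differed less than Ctsg. Elane, neutrophil elastase, was 1.29-fold lower (166 and 213 CPM), and Prtn3, proteinase 3, was 1.23-fold lower, at 5005 and 6159 CPM. Ms4a3 lay at a ratio of 0.989 and Ctsc, which activates these proteases, at 1.15. Along the load Mpo went from 700.4 CPM in the lowest bin through 839.7, 690.0, 551 and 360.1 to 215 CPM. Elane showed no such order, with 149 CPM in the lowest, 282 CPM in the third and 169.6 CPM in the highest bin. In the highest bin Ctsg, Mpo and Prtn3 (3157 CPM) were each at their lowest of the 6 bins, and Elane was not.

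Progenitor and growth genes were lower in granule-rich cells. Of 10 measured progenitor genes 0 were at least 1.5-fold higher and 7 lower (median log2 ratio -0.71). Ikzf2, which encodes Helios, was 3.42-fold lower, Myc 2.83-fold (42.3 and 119.7 CPM, 2.33 to 3.44) and Kit, the receptor of stem cell factor, 2.26-fold (15.2 and 34.3 CPM). Myc stood at 151, 136, 78.3, 53.8, 40.4 and 30.3 CPM over the load bins, lower at each step. Hoxa9, a homeobox gene of myeloid leukemia, was level at 161 and 157 CPM (1.02-fold, 0.903 to 1.16). Meis1, its partner, had 27 and 19 UMIs (1.02-fold, 0.549 to 1.95), and Cd34 45 and 40 UMIs (0.811-fold, 0.518 to 1.27), and both intervals include 1. The other lower members were Msi2 (2.07-fold), Adgrg1 (1.87-fold), Myb (1.69-fold) and Ebf1 (1.63-fold).

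Ribosome biogenesis, the nucleolar assembly of ribosomes, had 20 of 27 measured genes at least 1.5-fold lower and 0 higher, with a median log2 ratio of -0.75. Nop58, a box C/D ribonucleoprotein, was 2.36-fold lower, Dkc1 (dyskerin) 2.38-fold and Nop56 2.27-fold. The abundant Npm1 (nucleophosmin) and Ncl (nucleolin) were 1.47-fold and 1.64-fold lower. The list summed to 5163 CPM in the lowest load bin and 2198 CPM in the highest. Srm, spermidine synthase, was 2.91-fold lower (45.0 and 131 CPM). The structural ribosomal proteins differed less, with 1 of 34 lower, 0 higher and a median of -0.21. Their sum was 83823 CPM in the lowest load bin and 60082 CPM in the highest.

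Most cell cycle genes passed 1.5-fold in neither direction. Of 34 S phase genes 5 were at least 1.5-fold lower and 0 higher (median log2 ratio -0.21), beside 9.06% lower of all measured genes, among them Ung (2.12-fold), the helicase subunit Mcm2 (1.85-fold) and Pcna, the sliding clamp (1.56-fold, 47.9 and 74.6 CPM). Of 48 G2/M genes 2 were higher and 0 lower (median 0.19): Ckap2 (1.95-fold) and Cdca2 (1.70-fold). The G2/M count is no larger a share than the 6.1% of all measured genes. Mki67, the proliferation antigen, stood at 161 and 117 CPM (1.38-fold, 1.20 to 1.58). Mitotic transcripts were thus present in both classes. Without Prg2-rich cells the G2/M median was 0.09 and the S phase median -0.30.

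Called from scores on the same lists in cells thinned to 3500 UMIs, S phase took 14.3% of granule-rich cells (11.5% to 17.6%) and 23.3% of other cells (18.8% to 28.4%). Without thinning the shares were 14.8% and 22.2%. The G2/M class took 28.5% (24.7% to 32.5%) and 24.0% (19.3% to 29.1%), but 28.3% and 28.5% without thinning. The class with neither score above 0 took 57.2% and 52.7%, and 56.9% and 49.3% without thinning. Free RNA enters such scores, and its part in the S phase shares was not tested. The other cells take in the Prg2-rich ones described below, which were called to a cycling class less often. Thinned, 8 of 39 Prg2-rich other cells were called S or G2/M, against 140 of 274 remaining other cells.

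Housekeeping lists showed few differences of 1.5-fold. Glycolysis had 1 of 15 higher (Slc2a3, the glucose transporter GLUT3, 2.11-fold) and 0 lower, with a median log2 ratio of -0.07. Oxidative phosphorylation had 0 of 24 in either direction (median -0.11), and lysosome genes had 1 of 18 lower, Gaa (1.64-fold), with a median of 0.02. Of 7 BCL2 family genes 1 was lower, Pmaip1, which encodes NOXA (1.83-fold; median -0.18), and of 6 nuclear shape genes 0 differed (median 0.17). Of 4 measured interferon response genes 3 were lower, Isg15 (2.26-fold), Bst2 (1.85-fold) and Ifi35 (1.58-fold), with a median of -0.68. The whole interferon list did not fall evenly along the load. It summed to 203, 213 and 444 CPM in the 3 bins under the cut and 208, 149 and 132 CPM in the 3 over it.

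Markers of other blood cells were mostly level or lower in granule-rich cells. The monocyte and macrophage list had 1 of 18 members higher, Ly6c2 (188 and 34.0 CPM, 5.53-fold), and 2 lower, Ms4a7 (2.76-fold) and Wfdc17 (1.57-fold). Of the 383 other cells 9 held at least 50% of the class's Ms4a7 UMIs. Its median log2 ratio was -0.18, its sums were 4374 CPM in granule-rich and 4625 CPM in other cells, and Mrc1, C1qa and C1qb were at 0 in both. Ly6c2 is also made by immature granulocytes and has near-identical neighbours. Csf1r, the receptor that marks monocytes, stood at 55.4 and 61.7 CPM (0.898-fold, 0.729 to 1.11). The lectin Clec4n was 5.23-fold lower, but 4 of the 383 other cells held at least 50% of that class's Clec4n UMIs.

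Dendritic, erythroid, megakaryocyte and lymphoid lists had 1, 1, 2 and 2 measured members, of which 1, 1, 2 and 1 were lower and 0 higher, with median log2 ratios of -0.83, -0.91, -1.32 and -0.23. They were Bst2, Tfrc, the transferrin receptor (1.95-fold), Itga2b and Cd9 (5.48-fold and 1.98-fold) and Ebf1. Bst2 and Ebf1 are counted in other lists above as well. Without Prg2-rich cells Itga2b fell under 20 CPM, and 1 megakaryocyte member was left as measured. Under that filter in both classes, Gp9 was 1.80-fold higher (75 and 30 UMIs) and Pf4 2.97-fold lower (14 and 30 UMIs). Defining genes such as Hba-a1, Vwf, H2-Aa and Cd3e were at 0 in both classes. The mast cell and basophil list had 3 of 3 measured members lower (median -0.68): Cpa3, mast cell carboxypeptidase (3.80-fold, 129.9 and 494 CPM), Hpgds (1.81-fold) and Gata2 (1.58-fold). Of the other cells 12 held at least 50% of the class's Cpa3 UMIs. That list summed to 167 CPM in granule-rich and 557 CPM in other cells.

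The widest lower values were eosinophil genes, and those of Prg2, Epx and Alox15 came largely from few cells. Of 5 measured eosinophil markers 4 were lower and 0 higher (median log2 ratio -2.39), and the list summed to 1664 CPM in granule-rich and 21005 CPM in other cells. Prg2, which encodes eosinophil major basic protein, stood at 998 and 17672 CPM, 17.7-fold lower (17.1 to 18.3). Epx, eosinophil peroxidase, had 2 UMIs in granule-rich and 193 in other cells, 134-fold lower (36.6 to 1113). Prg3 was 5.26-fold lower and Alox15 7.86-fold, while the eosinophil lectin Siglecf was level (0.920).

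Cells with over 100 Prg2 UMIs per 10000 UMIs of the genes outside the rule numbered 62 of 383 other cells (16.2%, 12.6% to 20.3%) and 5 of 580 granule-rich cells (0.862%, 0.280% to 2.00%). This cut was set after the values were seen. The 62 cells held 87.7% of the culture's Prg2 UMIs and all 193 Epx UMIs of the other cells, and their median granule load was 3.03 per 10000, against 20.0 over all other cells. Without Prg2-rich cells 355 genes were at least 1.5-fold higher (6.33% of 5608) and 593 lower (10.6%). The Prg2 ratio was then 0.642, but those cells were removed by their Prg2 level, so this shift follows from the cut. Of 3 measured eosinophil genes 2 were lower, Prg2 itself and Prg3, and the median log2 ratio of -0.64 is that of Prg2. Prg3 was still 3.62-fold lower. Granule-rich cells and Prg2-rich cells thus overlapped in 5 cells of the culture.

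In the load bins, Prg2-rich cells numbered 51 of 135 at 0 to 10 per 10000, then 6 of 107, 5 of 141, 3 of 184, 0 of 205 and 2 of 191. The bins from 10 per 10000 upward were therefore compared with few such cells. Between 10 to 30 and over 1000 per 10000 Ctsg still went from 3845 to 617 CPM, Myc from 136 to 30.3 and Srm from 165 to 29.4. The 12 lowest genes also held Vat1 (2.95-fold lower) and Tespa1 (2.68-fold lower), which keep ratios of 0.379 and 0.401 without the Prg2-rich cells.

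Set beside the earlier cultures of the series, the 2 classes stood at different distances from the start. Both are compared with the same 0 h culture. Ltf was at 3.11 CPM at 0 h, 2.40 at 6 h, 0.738 at 12 h and 1.79 at 24 h, so the 5.54 CPM of the other cells at 48 h lies near the range of the earlier cultures and the 897 CPM of granule-rich cells far above it. Stfa1 was at 134, 155, 149 and 989 CPM, and both classes at 48 h exceeded all of these. Mmp8 was at 3.49, 2.40, 2.86 and 3.30 CPM, and the other cells at 48 h, with 67.6 CPM, were above those as well. The other cells were thus not at the level of the 0 h culture in stefin A and Mmp8 transcripts.

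Cebpe, nearly equal between the classes at 48 h, had stood at 117 CPM at 0 h, 98.2 at 6 h, 232 at 12 h and 756 at 24 h. Hp went from 45.9 CPM at 0 h to 604 at 24 h before the 2356 and 1459.8 CPM of the 2 classes. Both classes thus stood well above 0 h in these genes. Mpo was at 941, 1019.9, 1139 and 2862 CPM in the 4 earlier cultures, and at 48 h it was lower than in any of them in granule-rich cells (387) and in other cells (739). Myc was at 214, 49.0, 150.2 and 163 CPM, so the granule-rich level of 42.3 CPM lay below each of them and the level of other cells (119.7) inside their range. Npm1 lay below the earlier range in both classes, with 3822, 3908, 2922 and 2628 CPM before and 1134 and 1672 CPM at 48 h.

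**Figure D5:**
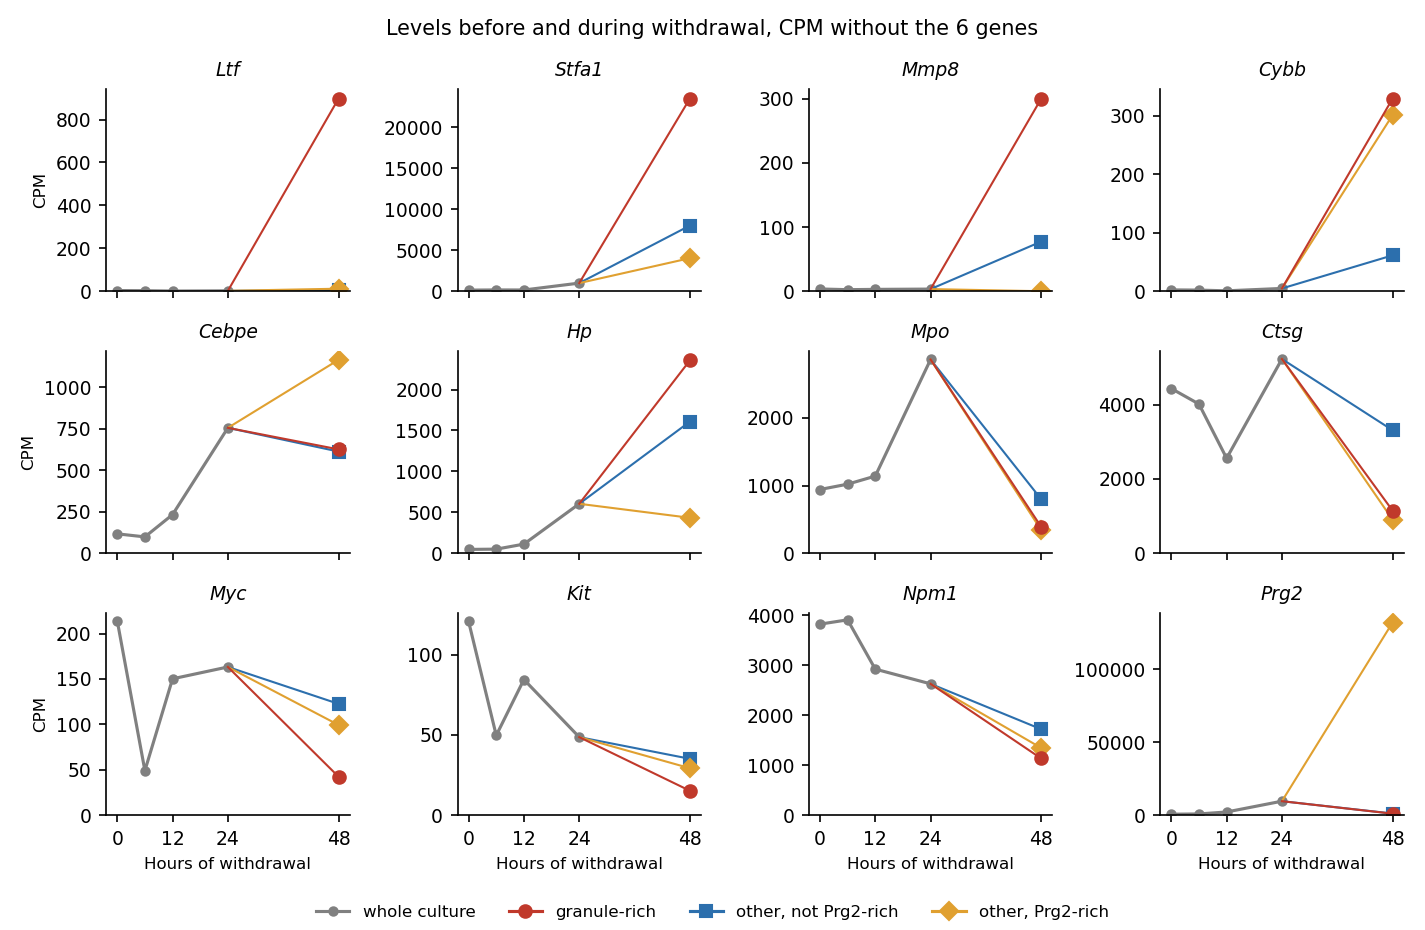
CPM (without the 6 rule genes) of 12 genes in the whole withdrawal cultures of 0 to 24 h (grey) and, at 48 h, in granule-rich cells (red circles), other cells that are not Prg2-rich (blue squares) and Prg2-rich other cells (orange diamonds); 1 culture per time and each panel on its own linear axis from 0. Ltf is seen in granule-rich cells, Cebpe is alike in red and blue, and Mpo lies below its 24 h level of 2862 CPM in all 3.

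Cells over the same cut in cultures that the rule did not use were few, and each held under 50 cells, so only their values are given. The 29 cells at 24 h of withdrawal held 270007 UMIs outside the rule. Ltf stood there at 44.4 CPM (23.0 to 77.6), against 0.980 CPM in the remaining 1364 cells of that culture, Wfdc21 at 219 CPM (166 to 282) against 9.17, and Fcnb at 404 CPM (331 to 487) against 19.1. Stfa1 was at 7878 and 859 CPM, Prg2 at 693 and 9739 CPM and Mpo at 1270.3 and 2892 CPM. Stfa2, 15.3-fold higher in granule-rich cells at 48 h, had 0 UMIs in these 29 cells, with an interval up to 13.7 CPM.

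At 48 h of brequinar, the 11 cells over the cut held 81603 UMIs outside the rule. Ltf was at 368 CPM (248 to 525) against 1.36 CPM in the other 517 cells, Stfa3 at 1029 (821 to 1274) against 1.75, and Mmp8 at 613 (455 to 808) against 108. Prg2 was at 172 (93.8 to 288) against 9324 CPM, and Cebpe at 502 against 662 CPM. The few cells over the cut in these 2 cultures thus carried more Ltf and less Prg2 than the other cells called to the same tag. Whether their tags were called rightly was not tested.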

How the data were processed

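The authors deposited raw counts of spliced UMIs per cell barcode and gene, unfiltered, with both runs in 1 matrix, and their own MULTI-seq call of each barcode. Per the submitters' processing notes, the tools were kallisto 0.46, bustools 0.39.4 and Cell Ranger. The genome build is not given in the sources used here. Barcodes called doublet (2777) or negative (265) were left out and the other 12540 were used. No doublet caller was run. Of 54838 gene IDs, 54723 matched a symbol in the reference tables. Counts were summed per class and scaled to CPM without the 6 rule genes. Ratios carry conditional binomial intervals, and log2 ratios use a pseudocount of 5 CPM. Genes at 20 CPM or more in either class count as measured. Of 107 and 111 genes past 2-fold, the text names the 12 highest and 12 lowest at 50 CPM or more. Predicted, unnamed and mitochondrial genes were left out there. The text also names 2 to 4 members of each list and 20 fixed genes. Further list members, and those in the closing section, were named after their values were seen. The 26 gene lists cover granule, stefin A, late neutrophil, oxidase, receptor, actin, transcription factor, progenitor, cell cycle, ribosome, metabolic, lysosome, interferon, BCL2, nuclear shape and other-lineage genes. The members, the lists and the classes were chosen with earlier results of these data known. Phases were scored with scanpy 1.11.5, intervals computed with scipy 1.17.1. The ratio step was tested on simulated data. Alternatives were other cuts, scalings, filters, weights and cell sets.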

Additional observations from a re-analysis of the deposited data

How the results depend on the processing

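No paired analysis was possible because each condition is 1 culture and cells carry no mark of the run; for the same reasons no replicate could be left out. Genes at least 2-fold higher and lower, 107 and 111 as reported, numbered 192 and 244 without cells at 50 to 200 per 10000, 130 and 213 with every cell weighing the same, 142 and 177 with cells thinned, 78 and 176 with the rule genes in the totals, 2409 and 2220 with no filter on low values, 67 and 46 at 50 CPM or more, and 340 and 505 at 1.5-fold. At 50 CPM, 2 progenitor and 13 ribosome biogenesis genes were lower. At 2-fold for lists, 8 late neutrophil genes were higher and 3 primary granule, 4 progenitor and 9 ribosome biogenesis genes lower. The share of granule-rich cells was 69.9%, 47.0% and 41.1% at cuts of 50, 200 and 300, and 54.5% without S100a8 and S100a9 in the rule. Leaving out Prg2-rich cells was chosen after seeing the data. Then 2 eosinophil genes were lower, Prg2 itself among them, and the log2 ratio of Epx was 0.076, from 2 and 0 UMIs. Epx was the only gene at 2-fold or more, of those followed through the alternatives, whose direction turned. Of the counts and shares answering a comparison 22 moved by over 1.5 times or past the counting interval and 137 did not. Over all alternatives, 127 log2 ratios of single genes moved past their counting interval and 552 did not, most often without cells at 50 to 200 per 10000. Of list medians 45 moved and 397 did not, and of other list counts and phase shares 129 and 642. The cause of these shifts was not tested.

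With 1 culture per condition, no difference has a replicate check. The classes are a cut through a continuous load, the part of doublets within the culture was not tested, and genes under about 50 UMIs per class, such as Itgam and Meis1, show only differences of more than their wide intervals.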

Other observations

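The Prg2-rich cells below the cut differed from the remaining 321 other cells in more than eosinophil granule genes. The comparisons here follow a cut on Prg2 and genes picked after their values were seen, so they are values only, from 342276 and 2365590 UMIs. The 62 cells held all 34 Ear6 UMIs of the other cells, and Alox15 (a lipoxygenase of eosinophils) stood at 257 CPM (206 to 317) against 5.92 CPM. Siglecf was at 234 and 44.4 CPM, Il5ra, the interleukin 5 receptor, at 40.9 and 2.96, and Gata1 at 55.5 and 4.65. Il4 gave 32 UMIs in these 62 cells and 2 in the other 321, and the basophil and mast cell receptor Cd200r3 stood at 108 and 21.1 CPM. Slc7a11, a cystine transporter, was at 882 and 140.3 CPM.

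Granulocyte genes were divided in these cells. Cebpe stood at 1166 CPM in the Prg2-rich cells, above the 626 CPM of granule-rich cells, and Cybb at 301 CPM, near the 329 CPM of granule-rich cells, against 61.3 CPM in the remaining other cells. Mmp8, Cxcr2 and C5ar1 stood at 0, 0 and 8.76 CPM there, and Ctsg and Prtn3 at 903 and 2699.6 CPM against 3314 and 6660.1 CPM. Of 39 such cells deep enough for thinning, 8 were called S or G2/M (20.5%), against 140 of 274 remaining other cells (51.1%). Spp1 (osteopontin), Ms4a7 and Lyz1 stood higher in the remaining other cells, at 763, 71.4 and 115 CPM, against 29.2, 0 and 0 CPM in Prg2-rich and 362, 22.6 and 43.7 CPM in granule-rich cells. Ms4a7 was detected in 55 of all 383 other cells, and 9 of them held at least 50% of its UMIs.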
